A study of Mus musculus with 10 samples.

Results

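Of the 55681 non-control probes on the array, 16181 (29.1%) were aimed at long intergenic noncoding RNA regions, and these probes are described here. They were chosen by their annotation in the scanner files: a probe name of the array's region series and a target written as a chromosome, a start, an end and a strand (F for forward, R for reverse) in place of a gene. The 16181 probes covered 4607 stranded regions in 3540 intervals on 20 chromosomes, of which 1067 intervals had probes on both strands and 2473 on 1 strand. A stranded region had 1 to 10 probes (median 3), and 8171 probes were forward and 8010 reverse. Intervals were 62 to 7128487 bases long, and after overlapping intervals were merged 2223 remained. All coordinates are those of the files, in build mm9. For comparison, 33256 probes on the same arrays were named for a gene.

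Long intergenic noncoding RNAs are transcripts made outside protein-coding genes, usually at low levels and often in 1 or a few cell types. Some, such as Xist, which silences an X chromosome, act on the chromatin of nearby genes, while others act elsewhere in the nucleus or cytoplasm, and for most no function is known. The testis transcribes many such regions. The intervals are the array's own annotation of such regions, and a forward and a reverse probe of an interval report RNA of opposite strands.

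Mouse spermatogonia of 2 materials were measured on 10 one-colour arrays. Cultured germline stem (GS) cells, which the labels give as C57BL/6 and the study's methods as an intercross of C57BL/6 and ICR, had FGF2 and GDNF withdrawn over 3 days before 24 hours with 100 ng/mL FGF5 or without it (2 arrays each). FGF5 is a fibroblast growth factor and GDNF a ligand that spermatogonial stem cells need. GFP+ cells were sorted from testes of 2.5-month-old Gfrα1-GFP mice, which label GFRα1+ spermatogonia, either wild type (WT) or Fgf5-/- for the go-moja allele, on C57BL/6 (3 arrays each), and all 6 sorted samples carried the reporter. Each material was on a slide of its own, so culture, sorting, strain background and slide cannot be told apart in any comparison of cultured with sorted cells. The labels do not say whether replicates came from separate cultures or animals, and p-values therefore measure only the spread between these samples.

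In the text, the level of a probe is the log2 of its processed signal minus that of the 75th percentile of its array, so 0 is the 75th percentile and most region probes lie below 0. A probe was called detected where the scanner software marked it well above background. The 16 germ cell and spermatogonial marker genes were detected on every array, with summed signals of 218 to 229 times the 75th percentile in cultured and 279 to 328 times in sorted cells. The other lists were lower: summed signals were 2.30 to 2.95 and 6.40 to 10.8 for Sertoli, 5.01 to 6.65 and 0.43 to 1.96 for Leydig, 3.84 to 4.70 and 1.05 to 2.11 for macrophage, 21.2 to 31.5 and 27.6 to 34.6 for peritubular and fibroblast, 11.5 to 20.8 and 2.74 to 4.96 for endothelial, 22.0 to 29.6 and 20.1 to 25.0 for spermatocyte, and 0.839 to 1.03 and 4.52 to 15.96 for spermatid markers, in cultured and sorted cells respectively. The defining markers Amh and Fshr of Sertoli cells and Cyp11a1, Hsd3b6 and Lhcgr of Leydig cells were detected on no array, while 5 or 6 of 8 Sertoli and 2 of 6 Leydig markers were detected on every array of each group. What part these lists had in any difference between the materials was not tested. The Fgf5 probe was detected on 0 of 3 WT and 1 of 3 Fgf5-/- arrays, and so does not check the genotype labels.

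Every region probe was 60 bases long and no sequence occurred more than once. The median GC content was 45% (range 15% to 88.3%), against 41.7% for gene-named probes. The first sequences shown are those of the probes with the largest differences between the materials, 1 in each direction among probes detected on all arrays and 1 in each direction among probes detected in a single material. Each is written as the file gives it, 5′ to 3′, with runs of 4 or more G or C, or the polyadenylation signal AATAAA, in capitals where present.
chr12:55844075-55898175_R: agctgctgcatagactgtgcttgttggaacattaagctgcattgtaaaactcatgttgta
chr11:97457180-97487074_R: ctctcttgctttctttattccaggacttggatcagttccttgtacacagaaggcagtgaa
chr17:8025086-8026227_R: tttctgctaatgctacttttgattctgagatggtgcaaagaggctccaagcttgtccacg
chr17:84397891-84412748_F: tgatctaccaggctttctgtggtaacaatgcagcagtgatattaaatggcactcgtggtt

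Searched as written, on 1 strand only, AATAAA was in 3.92% of the region probes and in 13.4% of the gene-named probes. The run CCCC was in 11.9% and 10.3%, and GGGG in 12.0% and 10.1%, of the same classes. A match only describes the letters of the probe.

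Counted over all probes, intergenic regions were detected more often in cultured than in sorted cells, and in both materials less often than genes. Of the region probes, 51.2% and 49.9% were detected with FGF5 and 50.1% and 53.8% without it. In sorted cells the shares were 40.8%, 45.1% and 37.3% for WT and 51.9%, 35.5% and 35.5% for Fgf5-/-. The Fgf5-/- replicate 1 array stood apart from the other 5 sorted arrays and lay within the range of the cultured arrays, so the materials overlapped. The mean was 51.3% ± 1.77 (SD, n = 4) in cultured and 41.0% ± 6.47 (SD, n = 6) in sorted cells, a difference of 10.3 percentage points (two-sided exact permutation test, p = 0.0286). Without Fgf5-/- replicate 1 the sorted mean was 38.8% and the difference 12.4 points (exact permutation p = 0.0159). Leaving out any other array gave differences of 9.14 to 11.1 points with exact permutation p of 0.0397 to 0.0833, so this call depended on which arrays were included. In such mixed samples, fewer cells of a type and less RNA per cell cannot be told apart.

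The gap to the genes was also narrower in cultured cells. Among gene-named probes 70.2% to 71.9% were detected on the cultured and 66.1% to 73.7% on the sorted arrays. The share of region probes minus that of gene-named probes was -19.7 ± 1.07 points (SD, n = 4) in cultured and -27.9 ± 3.59 points (SD, n = 6) in sorted cells (difference 8.21 points, two-sided exact permutation test, p = 0.00952). This difference was 7.55 to 9.43 points with any 1 array left out, with exact permutation p of 0.00794 to 0.0159. With 1 probe for each stranded region and 1 for each of 24185 gene names, taken by probe name and not by signal, the gap was -16.6 points in cultured and -24.5 points in sorted cells (difference 7.89 points, exact permutation p = 0.0143). Taking the brightest probe on both sides gave 3.74 and -6.06 points (difference 9.79 points, exact permutation p = 0.00952), but a region had more probes to choose from than a gene, which raises its share. Both of these counts were chosen after seeing the data. The median level of all region probes was -4.67 to -4.38 on the cultured arrays, -5.72 to -5.16 on the WT arrays and -5.60 to -5.03 on the Fgf5-/- arrays, against -2.28 to -2.10 for gene-named probes.

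**Figure D1:**
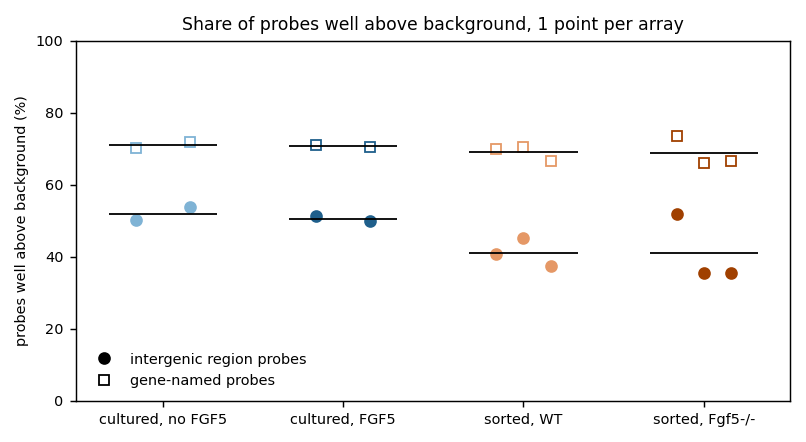
Share of probes detected on each of the 10 arrays, in percent, for intergenic region probes (filled circles) and gene-named probes (open squares), with a line at each group mean. Region probes lie at 49.9% to 53.8% in cultured cells and at 35.5% to 51.9% in sorted cells, below the gene-named probes of the same array in every case.

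Fewer probes were detected on every array of a material than on its single arrays. On all 4 cultured arrays 7167 region probes (44.3%) were detected, on all 6 sorted arrays 4815 (29.8%), on all 10 arrays 4630 and on none 4606. The corresponding shares of gene-named probes were 66.7% and 62.9%. Detection on all of 6 arrays is a stricter demand than on all of 4, so these counts are not alike between the materials. Probes seen on every cultured and no sorted array numbered 410 (2.53%; gene-named 1.06%), and those seen on every sorted and no cultured array 47 (0.290%; gene-named 0.869%).

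Probes of one region often disagreed. Of 3382 stranded regions with 3 or more probes, every probe was detected in 570, some in 1988 and none in 824 in cultured cells. In sorted cells the numbers were 385, 1486 and 1511. Detection went with base composition: the share detected on every cultured array was 18.9% for probes under 30% GC, 34.1% for 30 to 40%, 41.7% for 40 to 50%, 62.3% for 50 to 60% and 79.3% from 60% GC. In sorted cells these shares were 11.8%, 22.8%, 26.8%, 43.3% and 64.9%, lower in every class. Gene-named probes rose over the same classes from 55.4% to 85.7% in cultured and from 52.3% to 81.4% in sorted cells. By chromosome, detection in cultured cells was highest on chromosome 5 (52.9%) and chromosome 17 (51.3%) and lowest on chromosome 18 (35.0%) and chromosome 10 (36.0%).

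Where both strands of an interval carried probes, signal from both strands was commonly detected. Of the 1067 such intervals, 692 (64.9%) had at least 1 probe of each strand detected on all 4 cultured arrays, 139 only the forward, 160 only the reverse and 76 neither. On all 6 sorted arrays both strands were detected in 421 (39.5%), the forward alone in 212, the reverse alone in 226 and neither in 208. The 2 materials largely showed the same strand: 99 intervals were forward only and 110 reverse only in both, whereas the detected strand was exchanged between the materials in 1 interval each way. The order of the materials depended on the rule, since with detection on at least 1 array both strands were seen in 877 intervals in cultured and 901 in sorted cells. Requiring only a signal significantly above background on every array gave 931 and 788. These counts are descriptions, as 6 arrays give more chances to miss, or to see, a probe than 4.

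Comparing cultured with sorted cells, region probes were shifted toward cultured cells whereas genes, taken over all levels, were balanced. Of 8135 region probes tested (50.3%, those detected on every array of at least 1 group), 5291 (65.0%) were higher and 780 (9.59%) lower in cultured cells at an adjusted p below 0.05 (limma with Benjamini-Hochberg adjustment over all 35823 probes tested). Over all tested probes the shares were 41.9% and 25.7%, and over 24064 gene-named probes 32.9% and 32.4%. The median difference was 0.93 for region probes and 0.01 for gene-named probes on the log2 scale, and 0.66 and -0.06 among the 4630 and 19938 detected on all 10 arrays. A probe passed the filter through any group, and cultured groups had fewer arrays than sorted groups. Probes brighter in culture could therefore enter more easily, and the last pair of medians is the less dependent on the filter. When only the 4630 region probes detected on all 10 arrays were tested, 2804 were higher and 611 lower in cultured cells. Of the called region probes 82.1% were then higher, against 87.2% with the main filter.

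Scaling moved the size of this shift but not its direction. The median over all tested probes was 0.26, and 0.12 after quantile normalization, where the median of region probes was 0.56 and 4081 were higher and 1102 lower. The shift was present at each level: among probes detected on all arrays the median was 0.69 for region probes at levels of -4 to -3 and 0.43 at levels of 1 to 2, against 0.44 and -0.18 for gene-named probes. At levels above 2 the values were 0.18 and -0.20. Dim gene-named probes were shifted as well. Among all tested probes at levels below -4, which included 2780 region probes, the medians were 1.28 for region and 1.01 for gene-named probes.

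**Figure D2:**
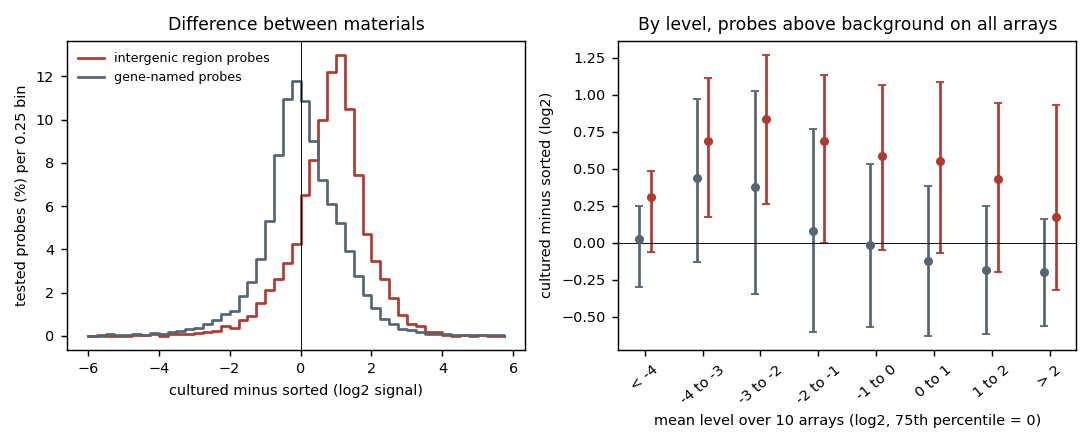
Left, distribution of the difference between cultured and sorted cells (log2 signal, percent of tested probes per 0.25 bin) for intergenic region probes and gene-named probes. Right, median and quartiles of that difference by mean level, for probes detected on all 10 arrays; region probes lie above gene-named probes at every level.

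Probes of a region often had the same sign, against a background in which 82.7% of all tested region probes were above 0. Of 1306 stranded regions with 3 or more tested probes, all probes, called or not, were above 0 in 833 (63.8%), all below 0 in 125, and of both signs in 348. Among 820 with 3 or more probes past the threshold, the numbers were 628 (76.6%), 84 and 108, where 87.2% of all called region probes were higher. The median SD of the differences among the probes of a region was 0.41.

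The size of the largest differences was not always shared by the other probes of a region. The chr11:97457180-97487074_R probe was at 1.93 and 0.09 with FGF5, 1.77 and -0.10 without, -3.70, -4.10 and -4.13 in WT and -3.32, -3.86 and -3.62 in Fgf5-/- cells. All cultured values lay above all sorted values, although the cultured arrays numbered 1 were nearly 2 log2 units above those numbered 2. The difference was 4.71 ± 0.44 (SE, 26.2-fold, adjusted p = 4.00e-05), and the interval holds a probe for 2410003L11Rik on the opposite strand. Of the other 6 probes of this region, 4 were not tested, 1 differed by 0.98, and 1 was higher in culture but detected on 2 of 6 sorted arrays. In chr7:4827340-4863315_F, which holds a probe for Isoc2a on the same strand, cultured levels were 4.06, 4.08, 4.04 and 4.13, and sorted levels 0.83, 0.91 and 0.59 in WT and 0.74, 0.59 and 0.44 in Fgf5-/- cells. This was a 10.5-fold difference (3.39 ± 0.11, SE, adjusted p = 2.62e-07) with little spread in either material, and 4 other probes of the region were also higher in culture, by 1.65 to 2.91.

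Other regions were higher in cultured cells over several probes. All 5 probes of chr1:58443698-58449898_R were higher in cultured cells and detected on every array there, but 1 was detected on no sorted array, 3 on 1 to 4, and a single one on all 6. The last was at -0.69 to -0.45 in cultured and -5.05 to -3.66 in sorted cells (3.78 ± 0.21, SE, adjusted p = 3.97e-06). The probes of chr12:83271350-83357214_F differed by 3.75, 3.51, 3.22 and 0.75, and 169538 bases separated that interval from the nearest gene-named probe.

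Fewer regions were higher in sorted cells. Among region probes detected on all arrays, the largest difference was in chr12:55844075-55898175_R, which holds a probe for Snx6, a sorting nexin of endosomes, on the same strand. Its levels were -1.69 and -1.31 with FGF5, -1.54 and -1.82 without, 4.32, 4.24 and 4.20 in WT and 3.76, 4.25 and 4.17 in Fgf5-/- cells. The groups did not overlap, and the difference was -5.75 ± 0.14 (SE, 53.7-fold, adjusted p = 5.51e-08), but the other 4 probes of the region differed by -1.72, -0.89, -0.84 and -0.25. In chr7:30645026-30667034_R the cultured levels were -2.34, -2.63, -2.53 and -2.17, and the sorted levels 2.18, 1.76 and 1.90 in WT and 1.53, 2.21 and 2.17 in Fgf5-/- cells (-4.38 ± 0.17, SE, 20.8-fold, adjusted p = 8.45e-07). Its other tested probes differed by 0.48 and 0.98 in the other direction, and Zfp420, a zinc finger gene, has a probe on the opposite strand of the interval.

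The remaining named probes lower in cultured cells spanned -2.83 to -2.39. In chr9:88575075-88611650_R, which holds a probe for Gm2382, the 3 tested probes differed by -2.83, -3.03 (detected on 3 of 4 cultured arrays) and -0.67. The 5 tested probes of chr7:48794017-48815817_R did not agree, with -2.66, -2.63 and -0.63 for 3 and 1.92 and 1.06 for the others. Single probes were lower in chr18:73863912-73864665_F (-2.78), chr15:84737071-84753414_R (-2.51) and chr9:65376063-65390480_R (-2.39).

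**Figure D3:**
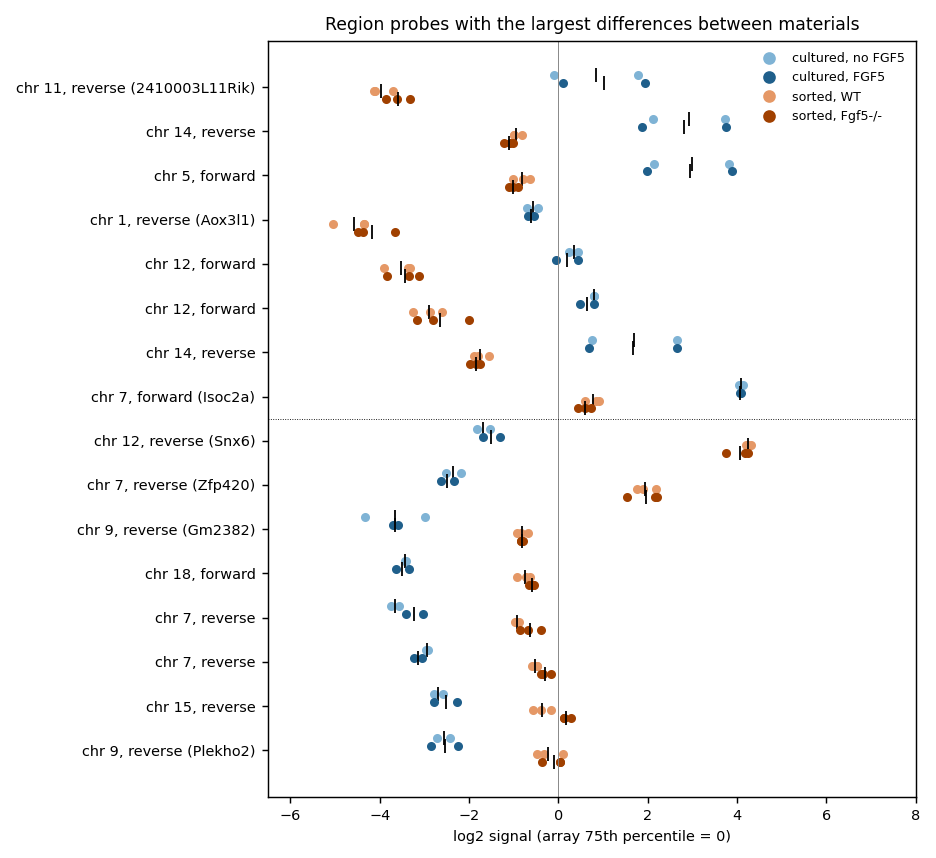
Level of the 8 region probes with the largest difference in each direction among those detected on all 10 arrays (log2 signal, 75th percentile of the array = 0), 1 point per array coloured by group, with a bar at each group mean; a gene is named where its probe is within 10 kb. Cultured and sorted arrays do not overlap for any of the 16 probes, and 4 of the 8 upper probes have cultured arrays nearly 2 units apart.

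Probes detected in a single material give lower bounds, computed against the detection floor of the other arrays. In chr17:8025086-8026227_R the level was -1.13, -1.04, -1.19 and -0.63 in cultured cells and not well above background on any sorted array, a signal at least 15.1-fold higher in cultured cells. The bounds were 9.21 for chr13:66381200-66410200_F, 8.31 for chr13:65716675-65765575_R and 7.62 for chr5:107503800-107515575_F. In the other direction, adjacent probes of chr17:84397891-84412748_F were at least 16.4-fold and 10.02-fold higher in sorted cells, with levels of -1.11 to -0.61 and -1.80 to -1.40 there. Adjacent probes of chr12:16003706-16022581_R were at least 6.10-fold and 5.38-fold higher in sorted cells. The nearest gene-named probe was 20243 to 198919 bases away from these intervals.

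Some region probes cannot be assigned to 1 locus, because regions that do not overlap shared a run of 20 or more identical bases. There were 120 such families with 308 probes (1.90% of the region probes), 30 of them over several chromosomes. Of the 217 probes tested, 104 (47.9%) were higher and 34 (15.7%) lower in cultured cells, against 65.0% and 9.59% of all tested region probes. Of 82 families with 2 or more tested probes, 76 had differences of 1 sign, called or not. Among all tested region probes 82.7% were above 0. Probes of a family can bind the same RNA, so they are not independent. The next sequences show 2 families that share an interval on chromosome 5 and an interval on chromosome 14, with the run common to each family in capitals (40 bases for the first family, with AATAAA inside it, and 45 for the second).
chr14:55433382-55452757_R: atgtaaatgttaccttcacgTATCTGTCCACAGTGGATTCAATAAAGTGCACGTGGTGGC
chr5:96591892-96606467_F: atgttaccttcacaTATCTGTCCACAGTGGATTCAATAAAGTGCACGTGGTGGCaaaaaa
chr14:55433382-55452757_F: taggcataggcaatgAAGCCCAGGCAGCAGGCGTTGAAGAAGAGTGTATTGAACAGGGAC
chr5:96591892-96606467_R: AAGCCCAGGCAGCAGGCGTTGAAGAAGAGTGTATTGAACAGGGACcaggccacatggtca

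In the first of these families the 2 loci could not be distinguished by their values. The chr14:55433382-55452757_R probe was at 3.74 and 1.87 with FGF5, 3.74 and 2.13 without, and -1.22 to -0.82 in sorted cells. The chr5:96591892-96606467_F probe was at 3.88 and 1.99, 3.82 and 2.14, and -1.11 to -0.64. Both differed between the materials by close to 3.9 (3.89 ± 0.40 and 3.88 ± 0.41, SE, adjusted p = 6.68e-05 and 7.91e-05). In each group the culture numbered 1 was above the culture numbered 2. The same order was seen in 3 further probes of the same 2 stranded regions. These 3 share a run of 27 bases with each other and so are not independent. The probes of the second family, on the other strand, differed less between these cultures: chr5:96591892-96606467_R was at 0.78 and 0.20 with FGF5 and at 0.56 and 0.47 without. Several marker lists also separated the cultures by number. Endothelial markers summed to 20.8 and 19.1 in those numbered 1 and 11.5 and 13.6 in those numbered 2, peritubular and fibroblast markers to 28.3 and 31.5 against 21.2 and 22.3, and Leydig markers to 6.65 and 6.57 against 5.01 and 5.20. Spermatocyte markers went the other way, with 22.0 and 22.9 against 26.0 and 29.6. The part of these lists in the probe values was not tested. Over the whole set, 75 of 7932 tested region probes (0.946%) were at least 2-fold higher in cultures 1 than 2 in both groups and 57 (0.719%) at least 2-fold lower, against 1.5% and 1.1% of gene-named probes.

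Another family lies on the X chromosome, with the nearest gene-named probes, among them one for the vomeronasal receptor Vmn2r121, 96901 to 333801 bases away. The run of 26 bases common to its members is in capitals.
chrX:120812236-121038407_R: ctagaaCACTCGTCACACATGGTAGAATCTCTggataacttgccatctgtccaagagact
chrX:120353972-120361170_R: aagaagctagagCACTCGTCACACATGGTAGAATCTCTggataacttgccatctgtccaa
chrX:120590872-120598071_R: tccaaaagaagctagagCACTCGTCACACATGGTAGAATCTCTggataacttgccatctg
chrX:122184810-122500048_F: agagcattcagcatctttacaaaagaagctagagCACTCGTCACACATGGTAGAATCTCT

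This family varied widely among the sorted samples. The chrX:120812236-121038407_R probe was not well above background on any cultured array or in WT replicate 1. On the other 5 sorted arrays it was at 0.04 and -1.25 in WT and 0.34, -0.99 and -2.07 in Fgf5-/- cells. The chrX:120353972-120361170_R probe was detected on the same 5 arrays, at -0.16 and -1.41 in WT and 0.06, -1.13 and -2.18 in Fgf5-/- cells. WT replicate 1 was the lowest sorted array for all 10 probes of this and a second family, which lies in the same intervals and 2 nearby ones. The genotypes overlapped for both probes described. The 4 probes shown were detected on no cultured array and on 5 of 6 sorted arrays, so no difference between the materials or the genotypes is given for them.

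A pair of loci on chromosome 13 was detected in cultured cells and not on any sorted array. The 41 bases that they share are in capitals.
chr13:66381200-66410200_F: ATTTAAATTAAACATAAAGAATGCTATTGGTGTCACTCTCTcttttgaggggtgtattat
chr13:65716675-65765575_R: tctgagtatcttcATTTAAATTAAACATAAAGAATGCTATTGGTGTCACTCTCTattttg

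Levels in culture were -1.95 to -1.59 for chr13:66381200-66410200_F and -4.10 to -3.82 for chr13:65716675-65765575_R. A further probe of the second region, adjacent to the one shown, was at -1.91 to -1.81. On chromosome 17, by contrast, 6 probes of 3 reverse-strand intervals shared sequence. Probes for Gm4944 and 2210404O09Rik lie inside 2 of these intervals and one for the zinc finger gene Zfp944 17587 bases from the third. The 4 that were detected on all arrays were lower in cultured cells (-1.1, -1.55, -1.62 and -2.02), and 1 more was detected on all 6 sorted and no cultured array.

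A forward and a reverse probe of an interval often changed by different amounts. For each of 745 intervals, the brightest forward and the brightest reverse probe were taken and the difference between them was compared between the materials, which cancels the brightness of each probe. The balance changed in 308 intervals (limma, adjusted over 745): toward the forward strand in cultured cells in 164 (22.0%) and toward the reverse strand in 144 (19.3%). In 102 of the 308 both strands changed in the same direction past the threshold by different amounts, in 78 they changed in opposite directions, in 126 a single strand changed and in 2 neither did. Across the 745 intervals the changes of the 2 strands had r = 0.13, a description across intervals that share arrays.

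In an interval on chromosome 11 the forward and the reverse probe overlap in position. Their 33 complementary bases are in capitals, and each probe is written 5′ to 3′ on its own strand.
chr11:16831925-16851121_F: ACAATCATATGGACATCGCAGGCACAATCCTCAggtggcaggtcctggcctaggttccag
chr11:16831925-16851121_R: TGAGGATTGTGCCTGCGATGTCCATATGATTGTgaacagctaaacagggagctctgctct

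The forward probe of chr11:16831925-16851121, an interval that holds a probe for 2810442I21Rik, was at -3.33 to -3.04 in cultured and -4.37 to -3.78 in sorted cells, 0.88 higher in culture (adjusted p = 0.000716). The reverse probe was at -2.01 to -1.85 in cultured and 0.01 to 0.29 in sorted cells, 2.10 lower on the log2 scale in culture (-2.10, adjusted p = 1.89e-06). The balance changed by 2.98 ± 0.17 (SE, adjusted p = 1e-05). Of 121 tested pairs that overlapped in position in this way, 42 had a changed balance, against 308 of all 745 tested pairs (41.3%).

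Opposite changes were also seen where probes lay apart. In chr5:22801058-22939737, which holds a probe for 5031425E22Rik, the forward probe was higher in culture (1.67) and the reverse lower (-1.77), a balance change of 3.44 ± 0.54 (SE, adjusted p = 0.00102), with the forward probe at 0.43 to 3.06 across sorted arrays. In chr5:23195569-23218551, which holds a probe for BC023969, the forward probe was lower (-0.82) and the reverse higher (2.58), a balance change of -3.40 ± 0.24 (SE, adjusted p = 2.5e-05). The probes of chr1:33965074-34060850 lie next to each other, and there the forward probe was lower (-1.61) and the reverse higher (1.29). Other large shifts toward the forward strand were in chr5:124667541-124700029 (3.02) and chr5:123582742-123588117 (2.75), and toward the reverse strand in chr4:124127144-124334840 (-3.05). In chr1:58443698-58449898 both strands rose in culture, the forward by 1.23 and the reverse by 3.78.

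**Figure D4:**
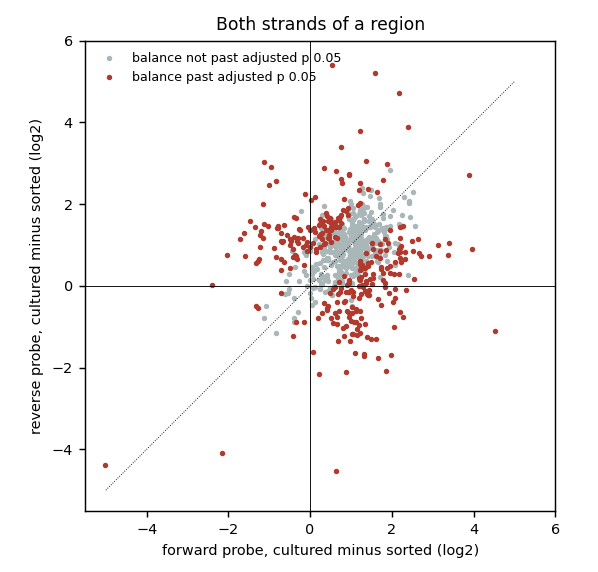
Difference between cultured and sorted cells (log2) of the forward probe against that of the reverse probe for 745 intervals; red points are the 308 whose balance changed at an adjusted p below 0.05, and the dotted line marks equal change. Points in the upper left and lower right quadrants are intervals whose forward and reverse probes changed in opposite directions.

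Of the 10 largest balance changes, 2 involve 1 shared sequence on chromosome 7. The forward probe of chr7:48794017-48815817 and the reverse probe of chr7:50509139-50526856 share the 32 bases in capitals.
chr7:48794017-48815817_F: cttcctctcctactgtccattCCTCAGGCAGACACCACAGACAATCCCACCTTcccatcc
chr7:50509139-50526856_R: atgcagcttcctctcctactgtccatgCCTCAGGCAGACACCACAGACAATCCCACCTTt

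The first of these probes was at 0.56 to 0.95 in cultured cells, -1.1, -1.0 and -1.01 in WT and -2.75, -1.24 and -1.44 in Fgf5-/- cells. The second was at 3.90 to 4.36, then 2.14, 2.58 and 2.93, then -0.10, 2.65 and 2.49. Fgf5-/- replicate 1 was the lowest array for both. The shared sequence is on opposite strands of the 2 intervals, and the balance changes were 2.83 and -3.15. The other probe of each pair, without the shared run, was lower in culture, by -0.63 and -1.15.

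Adding FGF5 to the cultures moved no probe of any kind past the threshold. Of 7933 region probes tested (49.0%), 0 had an adjusted p below 0.05 in limma (smallest 1.0), and 0 of all 34608 probes tested did (0.0%). Among the region probes 267 (3.37%) had an unadjusted p below 0.05, against 2.55% of all tested probes. At least 2-fold higher with FGF5 were 36 region probes (0.454%; all tested probes 0.867%) and at least 2-fold lower 57 (0.719%; all tested probes 0.439%). Among the 7167 detected on all 4 arrays the numbers were 10 and 12, so most of these probes were not detected on every array. Over all 32650 tested probes so detected, 184 were higher and 32 lower. With 1 array left out the 2-fold count was 318 to 542. The groups did not overlap for 2136 (26.9%; all tested probes 22.8%). The median residual SD of region probes (0.201) was close to that of gene-named probes (0.199). The next sequences are those of the named probes with the smallest unadjusted p in the FGF5 comparison, 2 probes of 1 region that overlap in position, and in the genotype comparison. No motif capitals occur in them.
chr5:74487385-74497428_R: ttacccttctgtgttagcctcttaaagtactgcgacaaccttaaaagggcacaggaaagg
chr5:74487385-74497428_R: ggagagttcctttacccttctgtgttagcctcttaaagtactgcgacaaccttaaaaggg
chr10:60473030-60535340_F: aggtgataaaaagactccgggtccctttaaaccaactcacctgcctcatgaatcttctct

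The 2 overlapping probes of chr5:74487385-74497428_R, which holds a probe on the opposite strand for Dancr, itself a noncoding RNA, were lower with FGF5. The first was at -1.90 and -2.28 with FGF5 and at -0.72 and -0.48 without (-1.49 ± 0.21, SE, adjusted p = 1.0). The second was at -2.24 and -2.46 against -1.47 and -0.99. Other tested probes of the region differed by 0.05, 0.05 and -0.21. In chr10:61486151-61488363_F levels were -2.28 and -1.22 with FGF5 and -3.36 and -3.23 without (1.54 ± 0.38, SE, adjusted p = 1.0), and of its other probes 1 differed by 0.91 and 1 was detected on both arrays with FGF5 and neither without.

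Several of the largest FGF5 differences rested on 1 array. In chr4:131738732-131739264_F, 3413 bases from a probe of the N6-methyladenosine reader Ythdf2, the levels were -0.23 and -2.57 with FGF5 and -3.24 and -2.68 without. In chr19:53517903-53540753_F they were -3.83 and -1.5 against -4.16 and -4.28, and in chr3:95445094-95445564_R -3.16 and -3.23 against -0.45 and -2.98. In the last of these a single control array stood above the other 3. Levels in chr13:22110479-22116629_R were 1.81 and 0.79 with FGF5 and 2.29 and 2.51 without.

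Loss of Fgf5 likewise moved no probe of any kind past the threshold in sorted cells. Of 5554 region probes tested (34.3%), 0 passed (smallest adjusted p in limma 0.729), and 0 of all 30282 probes tested did (0.0%). Among the region probes 536 (9.65%) had an unadjusted p below 0.05, against 6.77% of all tested probes. At least 2-fold higher in Fgf5-/- cells were 52 (0.936%; all tested probes 0.479%) and at least 2-fold lower 56 (1.01%; all tested probes 0.459%). Among the 4815 detected on all 6 arrays 10 were higher and 21 lower, so most of these probes were not detected on every array and the split between directions differed. Over all 28502 tested probes so detected, 24 were higher and 73 lower, so more were lower there too. With 1 array left out the 2-fold count was 163 to 290. The genotypes did not overlap for 855 (15.4%; all tested probes 16.2%). The median residual SD of region probes was 0.265, against 0.177 for gene-named probes, so these probes varied more between sorted samples. With Fgf5-/- replicate 1 left out 4 region probes passed, with Fgf5-/- replicate 3 left out 1, and with WT replicate 3 left out 1. Each of these 6 was detected on 2 of 3 arrays of the brighter genotype and on none of the other, and entered the test only when the array that had not detected it was left out. The filter thus fixed their direction, and they are not read as differences between the genotypes.

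The named difference with the smallest p was a lower level in Fgf5-/- cells. In chr10:60473030-60535340_F, which holds a probe for Gm20611 on the same strand, levels were -2.22, -2.10 and -2.32 in WT and -3.30, -3.90 and -3.81 in Fgf5-/- cells (-1.46 ± 0.18, SE, adjusted p = 0.729). Its other tested probe differed by 0.38. All 3 probes of chr17:34018371-34019394_R, which holds a probe on the same strand for Kifc1, a kinesin of the spindle, were lower, by -1.22, -1.1 and -0.96. For the first of them the levels were 1.42, 3.0 and 2.54 in WT and 1.33, 0.89 and 1.09 in Fgf5-/- cells, and only WT replicate 1 came near the mutants. In chr4:33375464-33377138_R levels were -1.73, -0.46 and -2.22 against -2.34, -3.52 and -4.38.

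In the other direction, chr10:5950116-5958250_R was at -4.82, -3.27 and -3.62 in WT and -2.57, -1.70 and -2.57 in Fgf5-/- cells (1.63 ± 0.44, SE, adjusted p = 0.729). Its other 5 probes were also higher, by 0.44 to 0.64. Further named probes were higher by 1.24 in chr1:167515313-167516122_F, 0.96 in chr8:87504644-87513694_R, which is 2704 bases from a probe of the AP-1 gene Junb, 0.90 in chr7:16584852-16657252_R and 0.88 in chr8:124355710-124401160_R.

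**Figure D5:**
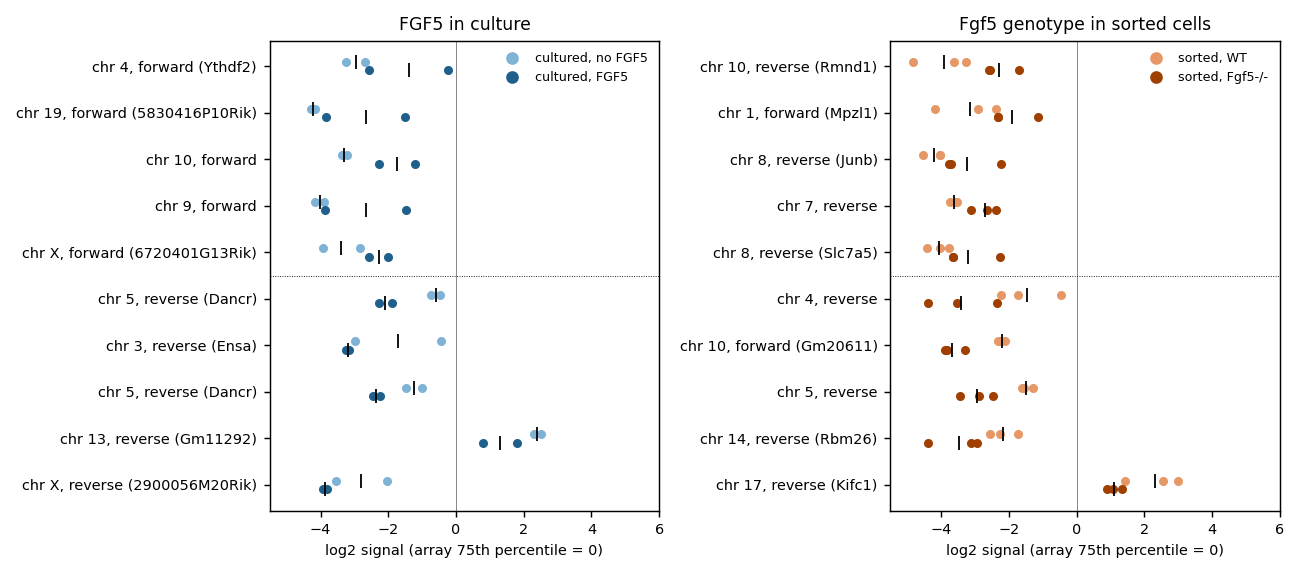
Level of region probes, the 5 most changed upward and the 5 most changed downward (log2 signal, 75th percentile of the array = 0) with and without FGF5 in culture (left) and in WT and Fgf5-/- sorted cells (right), 1 point per array with a bar at each group mean; a gene is named where its probe is within 10 kb. The groups do not overlap for the probes shown, which was a condition of their choice, and none passed the adjusted threshold.

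Region probes on both sides of Fgf5 were also examined. The Fgf5 probe lies at chr5:98705980-98706039, and 165 region probes were within 10 Mb of it, of which 64 were tested. Of these, 15 (23.4%) in 8 regions had an unadjusted p below 0.05, 6 of the 15 lower in Fgf5-/- cells. The share was 7.5% of 40 region probes at 10 to 20 Mb and 8.22% of 304 on the rest of the chromosome. On other chromosomes it was 9.66% of 5104. Among gene-named probes it was 10.67% of 150 within 10 Mb and 6.42% at 10 to 20 Mb. Further off it was 6.05% on the rest of the chromosome and 5.84% on other chromosomes. Some of the 15 were detected on every array of the brighter genotype alone, through which the filter admitted them. These counts are descriptions, since probes of a region are not independent.

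The 3 probes of chr5:92556322-92558910_F, which holds a probe for D430040L24Rik, were lower in Fgf5-/- cells by -1.06, -0.70 and -0.56. The first of these was detected on all 3 WT but 2 of 3 Fgf5-/- arrays, so the filter admitted it through WT. In chr5:100845342-100869667_R, 1488 bases from a probe of Lin54, a subunit of the DREAM complex, the 3 of 8 probes with an unadjusted p below 0.05 differed by 0.62, 0.60 and 0.41, 3 others by 0.35, 0.32 and 0.18, and 2 were not tested. In chr5:106121842-106127192_R probes differed in both directions (0.91, 0.64, 0.50 and -0.85, with 1 more not tested), the first of them detected on 1 of 3 WT arrays. The chr5:96591892-96606467_R probe was at -1.56, -1.62 and -1.29 in WT and -3.44, -2.47 and -2.88 in Fgf5-/- cells (-1.44 ± 0.25, SE, adjusted p = 0.729), while the other tested probe of that region differed by 5.9e-05. Its sequence family has a member on another chromosome, chr14:55433382-55452757_F, at -1.22, -1.07 and -0.96 in WT and -3.0, -1.56 and -1.40 in Fgf5-/- cells, so position near Fgf5 cannot be told apart from the shared sequence for this probe.

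Several of the brightest region probes lay in intervals with a ribosomal RNA probe. In sorted cells the highest means were those of chr17:39960567-39992817_F (8.28 ± 0.24, SD, n = 6) and chr17:39983902-39985688_F (8.27 ± 0.27, SD, n = 6), which hold a probe for the ribosomal RNA gene Rn18s. The brightest outside these intervals was chr17:17481706-17482457_R (7.81 ± 0.21, SD, n = 6), which holds a probe for Oaz1, the inhibitor of ornithine decarboxylase. In cultured cells the highest mean was that of chr11:22681800-22707775_R (8.05 ± 0.07, SD, n = 4), followed by chr14:78924115-78938125_F (7.88, 83.3% GC) and chr17:39982023-39983277_F (7.84), which holds a probe for Rn45s. The first of the next sequences is that brightest probe of cultured cells, beside a probe on chromosome 2 with which it shares 26 bases including AATAAA, in capitals.
chr11:22681800-22707775_R: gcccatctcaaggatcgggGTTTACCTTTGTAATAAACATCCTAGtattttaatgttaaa
chr2:167085700-167117795_R: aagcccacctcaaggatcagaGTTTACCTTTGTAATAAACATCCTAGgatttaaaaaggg

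The order of these probes is one of signals, which also depend on probe sequence, and is no order of RNA amounts. The chr2:167085700-167117795_R probe was at 6.73 to 6.85 in cultured and 5.55 to 6.21 in sorted cells. The ribosomal probes of chr17:39983902-39985688_F were lower in cultured cells by -1.63 to -1.23. For chr11:22681800-22707775_R (0.46) and chr17:39982023-39983277_F (0.35) the small difference between materials passed the threshold but was lost after quantile normalization (0.14, adjusted p = 0.134, and 0.06, adjusted p = 0.718).

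Many intervals called intergenic are close to genes. Of the 3540, 761 held a gene-named probe, 896 had one within 10 kb and 320 lay over 100 kb from any, and 197 region probes shared bases with a gene-named probe on the same strand. Where the interval held a gene-named probe on the same strand, the region and the gene differed between the materials with the same sign in 303 of 419 intervals (72.3%, r = 0.44 across intervals). With the gene on the opposite strand this was 169 of 285 (59.3%, r = 0.05), within 10 kb on the same strand 247 of 471 (52.4%), and beyond 100 kb 85 of 156 (54.5%). Since 71.1% to 89.5% of the regions in these classes were higher in culture, the sign alone agrees often. Where the gene inside was lower in culture, the region was lower in 51.6% of intervals with the same strand and in 10.9% with the opposite strand. Where the gene was higher, the region was lower in 15.5% and 10.3%. These are descriptions across intervals measured on the same arrays.

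Noncoding RNA genes with names gave a reference for the unnamed regions. Of 43 listed, 30 were on the array under their names and 26 were tested between the materials: 11 were higher in cultured cells, 9 lower, and the median was 0.03. Mirg, a transcript of the imprinted Dlk1-Dio3 domain, was 5.70 higher, Xist 1.69, Pvt1 1.69, Hotair 1.30, Kcnq1ot1, an antisense transcript of an imprinted domain, 1.22 and Airn 1.16. The imprinted H19 (-2.94) and Meg3 (-1.5), Tug1 (-1.24), Snhg3 (-1.17) and Neat1 (-1.05), the scaffold of paraspeckles, were lower. Malat1, a nuclear speckle RNA, differed by -0.13 (adjusted p = 0.538). With FGF5, 0 of 26 passed the threshold, and 0 of 25 did so between genotypes.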

How the data were processed

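RNA of cultured and sorted spermatogonia was hybridised to one-colour Agilent arrays, and the authors extracted the spots with Agilent Feature Extraction (version 10.7.3.1 per the submitters' processing notes, 10.7.1.1 per the file headers). The deposited scanner files give a processed spot intensity, a raw and background intensity and a detection mark per probe. The authors' deposited table gives log2 values that matched the scanner log2 signals up to 1 constant an array (r = 1 on all 10; column medians -3.74 to -3.10), and it was used as an alternative.

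Intensities below 1 were set to 1, each array was shifted to its 75th percentile, and log2 values were tested with limma 3.58.1 in R 4.3.3, adjusted over all probes detected on every array of a group. The FGF5 comparison used 4 arrays, the genotype comparison 6 and the comparison of materials all 10. Shares were compared by exact permutation over 210 regroupings. Control spots and spots marked as outliers were left out, and no region probe was saturated. The scripts were tested on simulated data.

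A bound is the mean of the bright material over, per array of the other, the higher of the lowest detected signal and the probe's own. Nearest genes are those of gene-named probes, by position in the files. The members, lists and rules were chosen with earlier results of these data known. Named were the 8 largest changes each way past the threshold and detected on all arrays of the comparison (where under 3 passed, the 5 largest without overlap and detected on all arrays), the 4 brightest each way detected in 1 material, the 5 brightest per material (1 is not reported here), the 5 largest strand balance changes each way, and 2-fold differences near Fgf5. Probes sharing sequence, other probes near Fgf5 and counts by GC, neighbour and culture number were added after seeing values.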

Additional observations from a re-analysis of the deposited data

How the results depend on the processing

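The alternatives were quantile normalization, normexp background correction, the authors' table, another percentile, a floor of 16 and outlier spots kept. Others were no or a stricter filter, an intensity trend, each array left out, and the replicate block. The materials were also compared through cells without FGF5 and sorted WT cells only. No named difference changed sign. Of the 6071 region probes called between materials, at most 59 had the other sign under an alternative (quantile normalization), and 0 of those were called there. The gap between regions and genes in culture turned to 3.74 points with the brightest probe of each region and gene, an alternative chosen after seeing the data that favours regions, which have more probes, and was -16.6 with 1 probe of each taken by name. The planned count, the brightest probe of each region against all gene-named probes, gave 4.70, but reduces the regions alone. The order of materials for both strands turned with detection on at least 1 array (877 cultured, 901 sorted). Over comparisons, 102 alternative values were counted as the same, 8 lost significance and 22 moved. The 8 were all of the detection share with 1 array left out. Values counted as the same could still differ in size: with FGF5 the 2-fold count was 67 at a floor of 16, against 93.

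The count of region probes at least 2-fold apart was the least stable. With FGF5 it was 93, but 6 after normexp, 902 without a filter and 22 with the strict filter, and 318 to 542 with 1 array left out, where fewer arrays have to pass the filter. For the genotype it was 108, but 13, 1276 and 31, and 163 to 290. Counts past the threshold were 0 for FGF5 in every setting, which says little of stability with 2 arrays a group and, with 1 left out, a spread taken from the other group alone. They were 0 to 4 for the genotype with 1 array left out, all of them probes that the filter admitted through 1 genotype. Between materials 6071 region probes passed, 3415 with the strict filter, which tests fewer probes, and 5692 to 6295 with 1 array left out. With cells without FGF5 against sorted WT cells only, 5159 passed. The strand balance changed in 308 intervals, or 208 with the strict filter and 221 to 349 with 1 array left out. Both strands were detected in sorted cells in 421 intervals, or 901 on at least 1 array and 788 by the looser mark. The difference in detection share was 9.14 to 12.4 points with 1 array left out, and relative to gene-named probes 7.55 to 9.43.

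With the replicate block, 0 region probes passed in either comparison and the 2-fold counts were 93 and 108. The labels do not say that numbers pair samples. Deviations of same-numbered arrays had r = 0.64 in culture and -0.42, -0.16 and -0.15 in sorted cells. With 2 arrays a group the 2 culture pairs mirror each other, so they give a single value. Among single probes and intervals, 6 alternative values lost their call, all of 2 of the brightest probes, and the other 1161 stayed on the same side of the threshold. For arrays the number of replicates and the signal over background limit precision: 4606 region probes were detected on no array.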
